A study of Mus musculus with 58 samples.

Results

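H19 and 9 further imprinted genes (Igf2, Dlk1, Meg3, Cdkn1c, Peg3, Mest, Plagl1, Grb10 and Ndn) were followed in adipose stem cells (ASC) of gonadectomized and control mice. They were found by symbol among the 56953 genes of the count table, each symbol matching 1 Ensembl identifier, and all 10 passed the filter on low counts. The genes were chosen by their measured differences after castration and ovariectomy in these same libraries, so their values in those comparisons are given as a description, without a test. The tests between control sexes and between populations use the same libraries as those comparisons, so their p-values are not independent of the choice. The material was bulk Smart-seq3 of cells sorted as CD45-/CD31-/CD34+ from the inguinal white adipose tissue (iWAT) of C57BL6/J mice, where DPP4- cells are called ASC1 and DPP4+ cells ASC2. Gonads were removed at 4 weeks of age and the mice, controls included, were terminated at 10 weeks after a fast of 4 h. The groups were control male (7 ASC1 and 8 ASC2 libraries), castrated male (8 and 8), control female (8 and 8) and ovariectomized female (3 and 8). By the study's methods separate mice were planned as the replicates of a group, but the labels do not tie ASC1 and ASC2 libraries to one mouse.

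Imprinted genes are expressed mainly from the allele inherited from one parent, and many of them act on growth. H19 is a maternally expressed non-coding RNA whose domain also holds Igf2, a paternally expressed growth factor. Dlk1 and Meg3 share another domain: Dlk1 (preadipocyte factor) is paternally expressed and restrains adipocyte differentiation, and Meg3 is a maternally expressed non-coding RNA. Cdkn1c is an inhibitor of cyclin-dependent kinases, Grb10 is an adaptor that restrains insulin receptor signalling, and Plagl1 and Peg3 encode zinc finger proteins. Mest is a paternally expressed gene known from fat mass expansion, and Ndn encodes necdin, which restrains adipogenesis. Allele of origin was not measured here.

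H19 carries a microRNA hairpin. Both mature arms are shown because they are short products of the member with the widest range in these libraries, with the seed (bases 2 to 8) in capitals. The hairpin lies at chr7:142577064-142577147 on the minus strand of GRCm38.p6 (RefSeq).
mmu-miR-675-5p: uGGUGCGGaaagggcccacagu
mmu-miR-675-3p: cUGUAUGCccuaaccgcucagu
The arms have different seeds. The libraries counted reads per gene, so the microRNAs themselves were not measured.

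RefSeq promoter windows (250 bases before and 50 after a start site, GRCm38.p6) were found for 8 members, 15 windows in all. They were searched on both strands for AGAACA, a half-site of the androgen and glucocorticoid receptors, and for GGTCA, a half-site of the estrogen receptor. AGAACA was found in 1 of the 15 windows, against 19% of 32817 windows of all genes, and GGTCA in 7 of the 15, against 40.5%. The 15 are not separate: 2 Mest windows, starting at 30737800 and 30737803, overlap almost wholly and share a GGTCA match. Igf2 gave 4 of the windows and Mest 3. The windows of Meg3 and Grb10, each the most upstream of 2 listed start sites, are shown because these genes were lower beside H19 in castrated ASC2, and that of Igf2, the most upstream of 4, because it held the AGAACA match. Capitals mark matches of either motif on either strand.
Igf2, chr7:142666767-142667066, minus strand: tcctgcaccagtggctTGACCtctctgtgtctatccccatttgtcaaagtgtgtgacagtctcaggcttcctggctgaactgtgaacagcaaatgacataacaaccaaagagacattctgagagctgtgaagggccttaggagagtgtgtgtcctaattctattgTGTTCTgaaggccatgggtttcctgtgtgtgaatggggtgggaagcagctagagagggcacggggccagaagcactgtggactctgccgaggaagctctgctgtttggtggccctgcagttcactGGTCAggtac
Meg3, chr12:109540746-109541045, plus strand: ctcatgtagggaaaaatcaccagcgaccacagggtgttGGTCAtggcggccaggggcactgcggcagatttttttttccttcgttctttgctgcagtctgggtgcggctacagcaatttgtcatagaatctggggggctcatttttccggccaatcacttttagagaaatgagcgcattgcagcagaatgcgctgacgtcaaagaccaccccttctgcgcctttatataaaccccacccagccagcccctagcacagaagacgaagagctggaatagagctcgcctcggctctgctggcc
Grb10, chr11:12037371-12037670, minus strand: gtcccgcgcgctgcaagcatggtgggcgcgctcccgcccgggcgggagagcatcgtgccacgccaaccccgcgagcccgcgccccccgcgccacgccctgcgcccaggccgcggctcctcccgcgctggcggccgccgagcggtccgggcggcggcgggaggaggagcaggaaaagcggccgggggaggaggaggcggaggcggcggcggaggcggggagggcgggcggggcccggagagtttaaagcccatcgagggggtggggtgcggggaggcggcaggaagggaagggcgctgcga
The Grb10 window held 45 CpG dinucleotides, that of Meg3 13 and that of Igf2 2, where the median over all windows was 7. The windows of the other listed start sites held 9 (Grb10), 1 (Meg3) and 14, 24 and 7 (Igf2). The matches describe these letters only. Start sites in use in ASC were not measured.

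Several libraries went against their labels, and values without them are given beside the main results. Total counts lay between 106566 and 1421547 per library. Dpp4 itself separated the populations without overlap, at 0.872 to 47.3 CPM (counts scaled to library size) in ASC1 and 49.2 to 489 in ASC2. By Xist, which is expressed from the inactive X chromosome, and 4 Y-linked genes, 27 of the 58 libraries carried transcripts against the labelled sex. Xist or the summed Y-linked genes stood at 10 CPM or more against the label in all 8 of castrated male ASC1. The same held for 4 of 7 and 4 of 8 of control male ASC1 and ASC2, and 5 and 6 of 8 of control female ASC1 and ASC2. In 11 libraries both stood at 10 CPM or more, 2 of control male ASC1, 4 of control male ASC2 and 5 of control female ASC2. Without the 27 libraries none of castrated male ASC1 was left. In 23 libraries Tcf21, a transcription factor known from visceral fat stroma, stood at 8.77 to 79.1 CPM, while Tbx15, known from subcutaneous fat, lay at 0 to 13.8 CPM. In the other 35 libraries Tcf21 did not exceed 1.58 CPM and Tbx15 lay at 8.71 to 73.4. The 23 libraries were spread over 6 groups, and none was in control male ASC2 or ovariectomized female ASC1. The 3 ovariectomized ASC1 libraries stood apart in another way: 6 proliferation genes summed to 8.0 to 13.8 CPM, against 123 to 951 in the other 55 libraries, and Col1a1 lay at 8567 to 16848 CPM, against 497 to 5849. The same 3 libraries had total counts of 188599, 256565 and 1114334, where the median over all 58 was 682424. They had 9122 to 11634 genes detected, against 9336 to 15035 in the other 55. In bulk samples, fewer cells of a type and less RNA per cell cannot be told apart.

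H19 had the highest mean in control male ASC2 and the lowest in castrated male ASC2, where the fitted level was 0.0996 times that of the controls. The 8 control male ASC2 libraries had a lowest value of 45.4, a median of 331 and a highest value of 956 CPM. In castrated male ASC2 these were 7.67, 41.8 and 84.7 CPM. Replicate A of the control males, at 45.4 CPM, was the 1 library that overlapped the castrated group, and the next control library had 218 CPM. The fitted castration difference was -3.33 ± 0.58 on the log2 scale (SE). It was -2.52 without the libraries against the sex label, -2.99 without the Tcf21 libraries and -2.19 without both. The 4 fibroblast markers (Pdgfra, Col1a1, Dcn and Lum) also summed to less in the castrated libraries, 3024 to 6641 against 7047 to 11584 CPM. Most of this was Dcn, with means of 2530 in castrated and 6522 CPM in control libraries. Pdgfra (289 and 387), Col1a1 (1576 and 1871) and Lum (401 and 563) differed less. The 4 endothelial markers summed to 36.8 to 92.6 against 10.6 to 38.9 CPM and the 4 macrophage markers to 116 to 615 against 65.7 to 191 CPM. The 3 ASC2 markers summed to 70.3 to 418 against 189 to 494 CPM. Dpp4 among them lay at 119 ± 54.3 in castrated and 236 ± 61.0 CPM in control libraries (SD). The part of all these markers in the result was not tested.

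Ovariectomized female ASC2 had H19 at 28.7, 35.7 and 77.1 CPM (lowest, median, highest), and control female ASC2 at 51.3, 87.2 and 150.5 CPM. The difference was -1.34 ± 0.61 in log2, the groups overlapped, and the value was -1.01 without the libraries against the sex label and -1.08 without the Tcf21 libraries. The value of -1.01 was reached after 6 of the 8 control female ASC2 libraries were left out. The 4 smooth muscle markers summed to 1309 to 3637 CPM in the ovariectomized and 155 to 2500 CPM in the control libraries, the 3 epithelial markers to 4.94 to 443 and 1.85 to 25.3 CPM, and the 3 ASC2 markers to 103 to 206 and 162 to 839 CPM. Their part in the result was not tested.

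ASC1 gave no such picture. In control male ASC1, H19 lay at 2.55, 124 and 292 CPM, and in castrated male ASC1 at 12.9, 21.1 and 313 CPM. Both groups were split. The castration difference was -0.51 ± 0.59 in log2, and 0.41 without the Tcf21 libraries. All 8 castrated male ASC1 libraries and 4 of the 7 controls were against the sex label. Castration therefore cannot be told apart from sex in ASC1. Control female ASC1 had 26.2, 51.5 and 178 CPM, and the 3 ovariectomized female ASC1 libraries had 59.7, 118 and 232 CPM. That difference was 1.02 ± 0.80, 0.06 without the Tcf21 libraries and 0.27 without ovariectomized replicate L.

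The split within ASC1 followed Tcf21. Castrated male ASC1 held 6 Tcf21 libraries with H19 at 12.9 to 26.6 CPM and 2 others at 264 and 313 CPM. The 3 Tcf21 libraries of control male ASC1 had 2.55 to 10.9 CPM and the other 4 had 124 to 292 CPM. Those 4 were also the ones against the sex label, so Tcf21 and sex-chromosome transcripts cannot be told apart in that group. The 6 Tcf21 libraries of control female ASC1 had 26.2 to 67.7 CPM, and the other 2 had 107 and 178 CPM. Of the 6 groups with both kinds of library, 5 had every Tcf21 library below every other one, control female ASC2 being the exception (74.7 and 80.1 CPM among 51.3 to 150.5). The part of these libraries in the group differences was not tested beyond leaving them out.

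**Figure D1:**
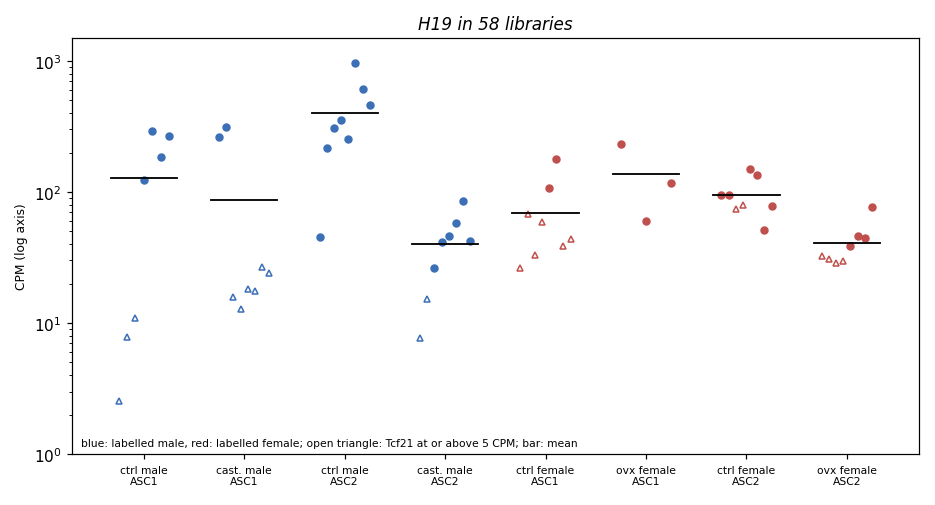
H19 in CPM (log axis) for each of the 58 libraries, by group (ctrl, control; cast., castrated; ovx, ovariectomized). Circles are libraries with Tcf21 below 5 CPM, open triangles those at or above it, and black bars are group means. Castrated male ASC2 lay at 7.67 to 84.7 CPM and control male ASC2 at 45.4 to 956 CPM, and the triangles lay lower than the circles within 5 of the 6 groups that hold both.

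Ordered by mean, H19 was highest in control male ASC2 (401 ± 280 CPM, SD), followed by ovariectomized female ASC1 (136 ± 87.7), control male ASC1 (127 ± 125), control female ASC2 (94.8 ± 32.9), castrated male ASC1 (86.5 ± 125), control female ASC1 (69.3 ± 50.9), ovariectomized female ASC2 (41.0 ± 16.1) and castrated male ASC2 (40.2 ± 24.6). No neighbours in this order differed by more than the larger of their SDs.

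Meg3 and Grb10 were also lower in castrated than in control male ASC2. Meg3 lay at 68.2, 126 and 210 CPM (lowest, median, highest) in castrated and at 143, 201 and 383 CPM in control libraries. The difference was -0.87 ± 0.26 in log2, and -0.36 without both the libraries against the sex label and the Tcf21 libraries. Grb10, the insulin receptor adaptor, lay at 88.5, 101 and 175 CPM in castrated and at 98.6, 234 and 464 CPM in control libraries. Its difference was -1.15 ± 0.21, and between -1.14 and -1.18 when either or both kinds of library were left out. Both genes overlapped between the groups. In this comparison 3 of the 10 members (H19, Meg3 and Grb10) had an adjusted p below 0.05, where 6.96% of all genes tested did; since the comparison chose the members, nothing is read from this count.

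The other 7 members differed less from their errors after castration. In ASC2, Dlk1 stood at -1.43 ± 0.71 in log2 (5.30 ± 4.48 CPM in castrated and 14.8 ± 9.92 in control libraries, SD) and Peg3 at -0.69 ± 0.33. Igf2, Plagl1, Ndn, Cdkn1c and Mest lay between -0.72 and 0.39. The median over the 10 members was -0.71, and over all genes 0.00443. In ASC1, Peg3 stood at 1.03 ± 0.36 and Grb10 at 0.57 ± 0.22 after castration, the opposite sign from ASC2. The 7 members other than these and H19 lay between -0.71 and 0.33, with SEs of 0.20 to 1.52. Peg3 was at 0 to 6.26 CPM in the 3 Tcf21 libraries of control male ASC1 and at 18.3 to 24.4 CPM in the other 4. The median over members was -0.30. All 8 castrated male ASC1 libraries and 4 of the 7 controls were against the sex label, so castration cannot be told apart from sex in ASC1.

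After ovariectomy, Meg3 was lower and Igf2, Peg3 and Ndn were higher in the ASC1 libraries than in their controls. The 3 ovariectomized ASC1 libraries had Meg3 at 6.19, 11.4 and 36.7 CPM, on 19 reads in all, with 1 read behind the lowest value. Control female ASC1 had 61.6, 107 and 171 CPM (lowest, median, highest). All 3 ovariectomized libraries lay under every control library, and the difference was -2.66 ± 0.52 in log2. Peg3 went the other way, at 51.4, 87.2 and 149 CPM against 11.7, 20.1 and 32.8 CPM, a difference of 2.20 ± 0.43 without overlap. Leaving out the libraries against the sex label, the Tcf21 libraries or both gave -2.88 to -2.62 for Meg3 and 1.95 to 2.15 for Peg3. The first setting left out 5 and the second 6 of the 8 control female ASC1 libraries, so these values rest on few controls.

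Igf2 in the 3 ovariectomized ASC1 libraries was at 5.71, 12.4 and 32.1 CPM, on 14 reads in all, against 0, 1.61 and 2.42 CPM in control female ASC1. The difference was 3.29 ± 1.02, and 2.29 without replicate N. It was 3.54 without the libraries against the sex label and 3.37 without the Tcf21 libraries. Ndn was at 142, 193 and 223 CPM against 59.0, 94.9 and 151 CPM, 0.90 ± 0.27 higher in log2, and 0.76 to 0.93 higher without either or both kinds of library. The values of Igf2 and Ndn with libraries of either kind left out rest on the same few controls. Plagl1 (1.92 ± 1.09), Cdkn1c (1.47 ± 0.77), Grb10 (0.61 ± 0.29), Dlk1 (0.42 ± 1.45) and Mest (-0.10 ± 1.08) overlapped between the groups. The median log2 difference over all genes was -0.34. The ovariectomized ASC1 libraries are those with few proliferation transcripts and high Col1a1, and this cannot be told apart from ovariectomy in ASC1.

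Meg3 in ovariectomized ASC2 was at 81.3, 137 and 181 CPM and in control female ASC2 at 66.7, 165 and 194 CPM, a difference of -0.08 ± 0.27. Grb10, Peg3, Ndn and Cdkn1c lay between -0.32 and 0.00 with SEs of 0.20 to 0.56. Dlk1 stood at -1.90 ± 0.93, Igf2 at -1.41 ± 0.79 and Plagl1 at -1.51 ± 0.76. Mest had 14 reads after ovariectomy and 2 in the controls, a ratio of 7.41 with a counting interval of 1.70 to 67.2 (95%, exact binomial). The Tcf21 libraries of ovariectomized ASC2 had Peg3 at 30.4 to 35.2 CPM and Grb10 at 213 to 259 CPM, while the other 4 had 7.69 to 17.1 and 103 to 169 CPM.

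**Figure D2:**
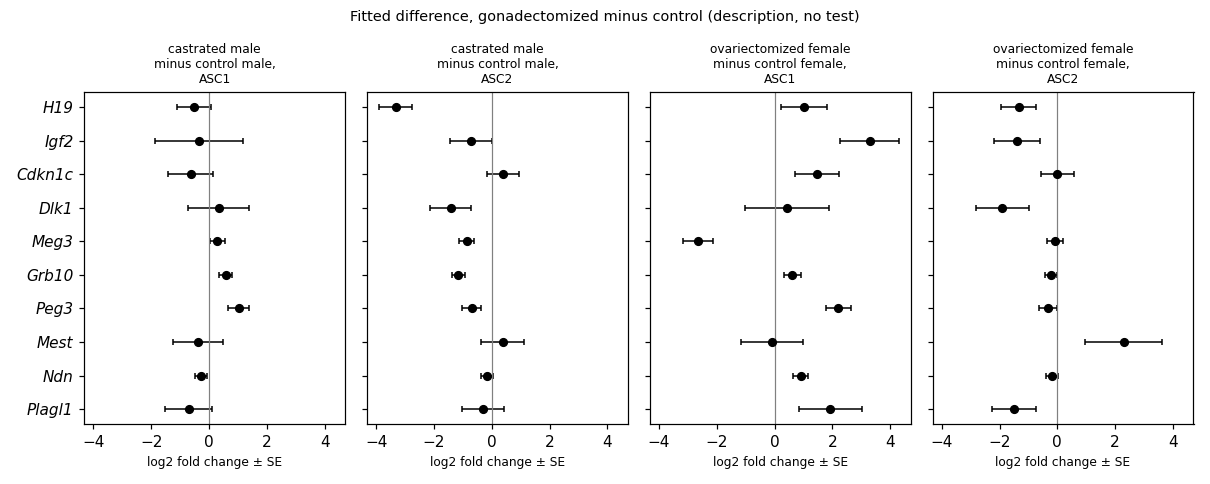
Fitted log2 difference between gonadectomized and control libraries for the 10 members (points, with SE as bars), in ASC1 and ASC2 of each labelled sex, given as a description. H19 had the largest decrease in castrated ASC2 (-3.33), Meg3 the largest in ovariectomized ASC1 (-2.66), and Igf2 the largest increase there (3.29).

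Between control males and control females, H19 was the 1 member that differed, in ASC2 (adjusted p = 0.016 by the quasi-likelihood test of edgeR, with Benjamini-Hochberg adjustment over 12464 genes). It was higher in males by 2.07 ± 0.55 in log2 (401 ± 280 against 94.8 ± 32.9 CPM, SD, n = 8 and 8), with overlap, and 1 of 10 members called compares with 6.5% of all genes. The 8 control male ASC2 libraries are those of the castration comparison, which chose the members, so this p is no independent support. Without the libraries against the sex label the H19 difference was 1.59 with an adjusted p of 0.18 by edgeR. That fit left out 4 of the 8 male and 6 of the 8 female libraries, and why the call was lost was not tested. Without the Tcf21 libraries the H19 difference was 1.97 with an adjusted p of 0.0022 by edgeR. Meg3 stood at 0.75 ± 0.26 in the same direction (adjusted p = 0.07 by edgeR), and Dlk1 at 1.04 ± 0.68 (adjusted p = 0.40 by edgeR). For Grb10 the interval of the difference was -0.23 to 0.59 and for Ndn -0.67 to 0.09 (95%).

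Control male and female ASC1 differed in none of the 10 members by edgeR or DESeq2, with 1 member at an unadjusted p below 0.05 by edgeR and 0.289% of all genes called. H19 stood at 0.83 ± 0.60 (adjusted p = 0.77 by edgeR), with an interval of -0.34 to 2.00. Without the libraries against the sex label the sign turned, to -3.78 with an adjusted p of 0.0060 by edgeR. The 3 control male ASC1 libraries that then remained were the 3 with Tcf21, at 2.55 to 10.9 CPM of H19.

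ASC2 of control males had higher Dlk1, Igf2, Grb10 and Peg3 than ASC1. These were 4 of the 10 members, all higher in ASC2, where 12.2% of all genes were called. The control male libraries are those of the castration comparisons, which chose the members. Nothing is therefore read from this count, and the p-values are no independent support. Grb10 differed by 1.24 ± 0.22 in log2, at 251.5 ± 125 CPM in ASC2 and 106 ± 27.5 in ASC1 (SD, n = 8 and 7; adjusted p = 6.8e-05 by edgeR). It differed by 1.49 (adjusted p = 0.0097 by edgeR) without the libraries against the sex label and by 1.10 (adjusted p = 0.027 by edgeR) without the Tcf21 libraries. Dlk1, the preadipocyte factor, differed by 3.00 ± 0.90 (14.8 ± 9.92 and 1.83 ± 2.40 CPM; adjusted p = 0.011 by edgeR). It had reads in all 8 ASC2 libraries and in 4 of 7 ASC1 libraries. Without the libraries against the sex label it differed by 3.32 and the call was lost (adjusted p = 0.086 by edgeR), and without the Tcf21 libraries by 2.45 (adjusted p = 0.043 by edgeR). Peg3 differed by 1.10 ± 0.35 (29.1 ± 11 and 13.5 ± 10.4 CPM, adjusted p = 0.029 by edgeR). Without the Tcf21 libraries Peg3 differed by 0.41 (adjusted p = 0.55 by edgeR), and without those against the sex label by 2.60 (adjusted p = 0.0067 by edgeR). In this last setting the ASC1 side was only the 3 Tcf21 libraries. Its values for Grb10, Dlk1 and Peg3 cannot be told apart from Tcf21 status.

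Igf2 had 24 reads in control male ASC2 and 3 in control male ASC1, a ratio of 6.80 per scaled library size with a counting interval of 2.07 to 35.3 (95%, exact binomial). Its adjusted p was 0.040 by edgeR, and 0.30 by edgeR without the Tcf21 libraries or 0.59 by edgeR without those against the sex label. H19 was just outside the threshold, at 1.66 ± 0.57 (adjusted p = 0.050 by edgeR). It was 0.88 without the Tcf21 libraries and 4.82 without the libraries against the sex label. The value of 4.82 rests on the 3 Tcf21 libraries of control male ASC1 and cannot be told apart from Tcf21 status. Ndn, at -0.14 ± 0.20, had an interval of -0.53 to 0.25.

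Control female ASC2 and ASC1 differed in Mest alone (1 of 10 members, 6.11% of all genes). Mest had 26 reads in ASC1 and 2 in ASC2, a ratio of 15.5 with a counting interval of 3.88 to 135 (adjusted p = 0.010 by edgeR). It was detected in 7 of 8 ASC1 libraries, at 0 to 14.0 CPM, and in 2 of 8 ASC2 libraries, at 0 to 1.83 CPM. The call was lost without the Tcf21 libraries (adjusted p = 0.096 by edgeR) and without the libraries against the sex label (adjusted p = 0.43 by edgeR). The latter setting left out 5 of 8 ASC1 and 6 of 8 ASC2 libraries. The difference between populations was not shown to depend on labelled sex for any member: 0 of 10 were called by edgeR and 0 of the 5 to which DESeq2 gave an adjusted p, 2 had an unadjusted p below 0.05 by edgeR, and 0.128% of all genes were called. For H19 the dependence was 1.24 ± 0.81, with an adjusted p of 0.62 by edgeR. It was 5.37 (adjusted p = 0.016 by edgeR) without the libraries against the sex label. Control male ASC1 then kept only its 3 Tcf21 libraries, and control male ASC2 held no such library. That value cannot be told apart from Tcf21 status.

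Castrated male ASC2 had higher Cdkn1c, the kinase inhibitor, than castrated male ASC1, by 2.03 ± 0.71 in log2 (9.96 ± 7.24 and 2.13 ± 3.66 CPM, SD, n = 8 and 8; adjusted p = 0.038 by edgeR). This was 1 of 10 members, beside 9.09% of all genes. Without the Tcf21 libraries, which left 6 ASC2 and 2 ASC1 libraries, the difference was 0.89 (adjusted p = 0.92 by edgeR). H19 stood at -1.16 ± 0.60 (adjusted p = 0.24 by edgeR) and, without the Tcf21 libraries, at -2.52 (adjusted p = 0.0082 by edgeR). The value of -2.52 rests on the same 2 ASC1 libraries. All castrated male ASC1 libraries were against the sex label, so sex cannot be told apart from population here.

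In ovariectomized females, Meg3 was higher in ASC2 than in ASC1 and H19, Igf2, Peg3 and Ndn were lower. These were 5 of the 10 members with an adjusted p below 0.05, beside 35.4% of all genes. The ASC1 side rests on the 3 libraries that stood apart and that entered the ovariectomy comparison which chose the members, so nothing is read from this count and the values are a description. Meg3 differed by 3.00 ± 0.52 in log2 (134 ± 38.2 and 18.1 ± 16.3 CPM, SD, n = 8 and 3). Peg3 differed by -1.86 ± 0.43, Ndn by -0.99 ± 0.27 and Igf2 by -3.00 ± 0.97. These 4 did not overlap between the groups, but the share of all genes without overlap was not counted, so nothing is read from this. Igf2 reached 5.24 CPM in ASC2 and began at 5.71 CPM in ASC1. H19, at -1.94 ± 0.82, overlapped, and was -1.20 without ovariectomized ASC1 replicate L. Without replicate N, Igf2 stood at -2.02. Leaving out the libraries against the sex label, the Tcf21 libraries or both gave 2.63 to 2.99 for Meg3, -2.83 to -1.87 for Peg3, -1.10 to -0.99 for Ndn and -1.94 to -1.59 for H19.

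**Figure D3:**
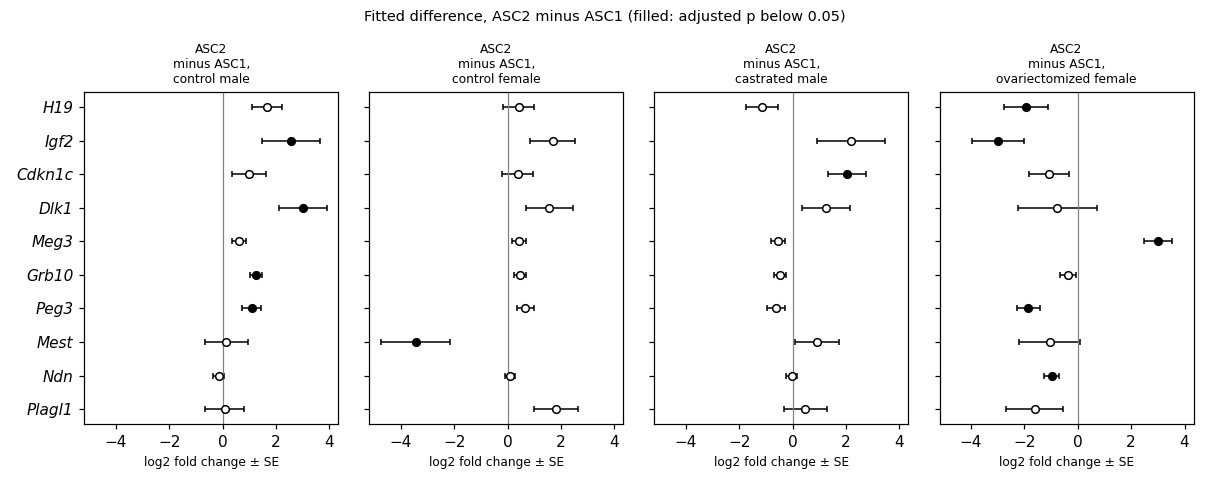
Fitted log2 difference between ASC2 and ASC1 for the 10 members within each labelled sex and treatment (points, with SE as bars). Filled points had an adjusted p below 0.05 by edgeR: 4 in control males, 1 in control females, 1 in castrated males and 5 in ovariectomized females.

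**Figure D4:**
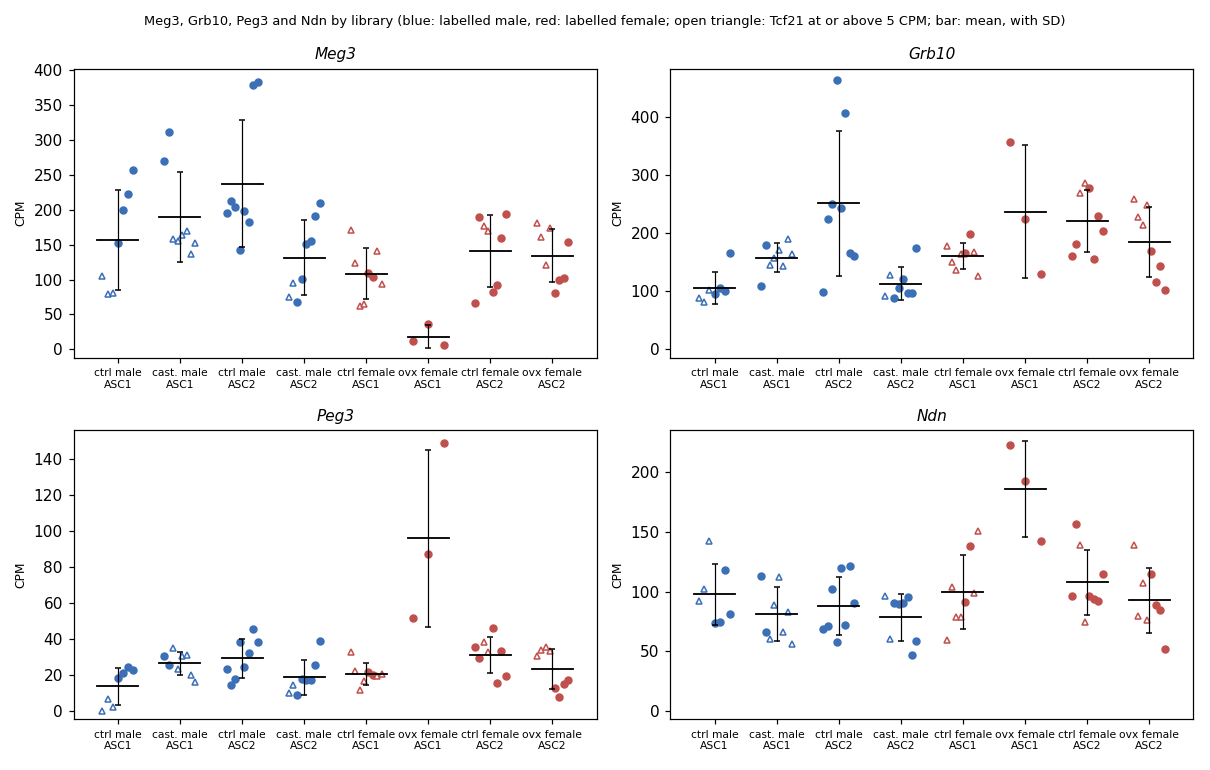
Meg3, Grb10, Peg3 and Ndn in CPM for each library by group (ctrl, control; cast., castrated; ovx, ovariectomized), with the mean and SD in black and Tcf21 libraries as open triangles. The 3 ovariectomized female ASC1 libraries lay lowest for Meg3 (6.19 to 36.7 CPM) and highest for Peg3 (51.4 to 149 CPM).

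Levels of the other well counted members ran as follows. Meg3 was highest in control male ASC2 (237 ± 91.3 CPM, SD) and lowest in ovariectomized female ASC1 (18.1 ± 16.3), and only the step from control female ASC1 (109 ± 36.7) to that group exceeded the larger SD of the pair. For Grb10 the order ran from control male ASC2 (251.5 ± 125) to control male ASC1 (106 ± 27.5), and the 1 step beyond the larger SD was that between castrated male ASC1 (157 ± 25) and castrated male ASC2 (113 ± 28.5). Ndn had group means of 78.3 to 108 CPM outside ovariectomized female ASC1 (186 ± 40.6).

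The remaining members had few reads. Over the 58 libraries Igf2 had 103 reads in 34 libraries, Mest 112 in 40, Plagl1 161 in 44, Dlk1 205 in 35 and Cdkn1c 283 in 51, against 4847 reads of H19, found in every library. Dlk1 had no read in any of the 6 Tcf21 libraries of castrated male ASC1 and 7.18 and 8.94 CPM in the other 2. It had none in the 4 Tcf21 libraries of ovariectomized female ASC2 either. Plagl1, the zinc finger factor, had group means of 1.82 to 11.1 CPM and was called in no tested comparison.

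**Figure D5:**
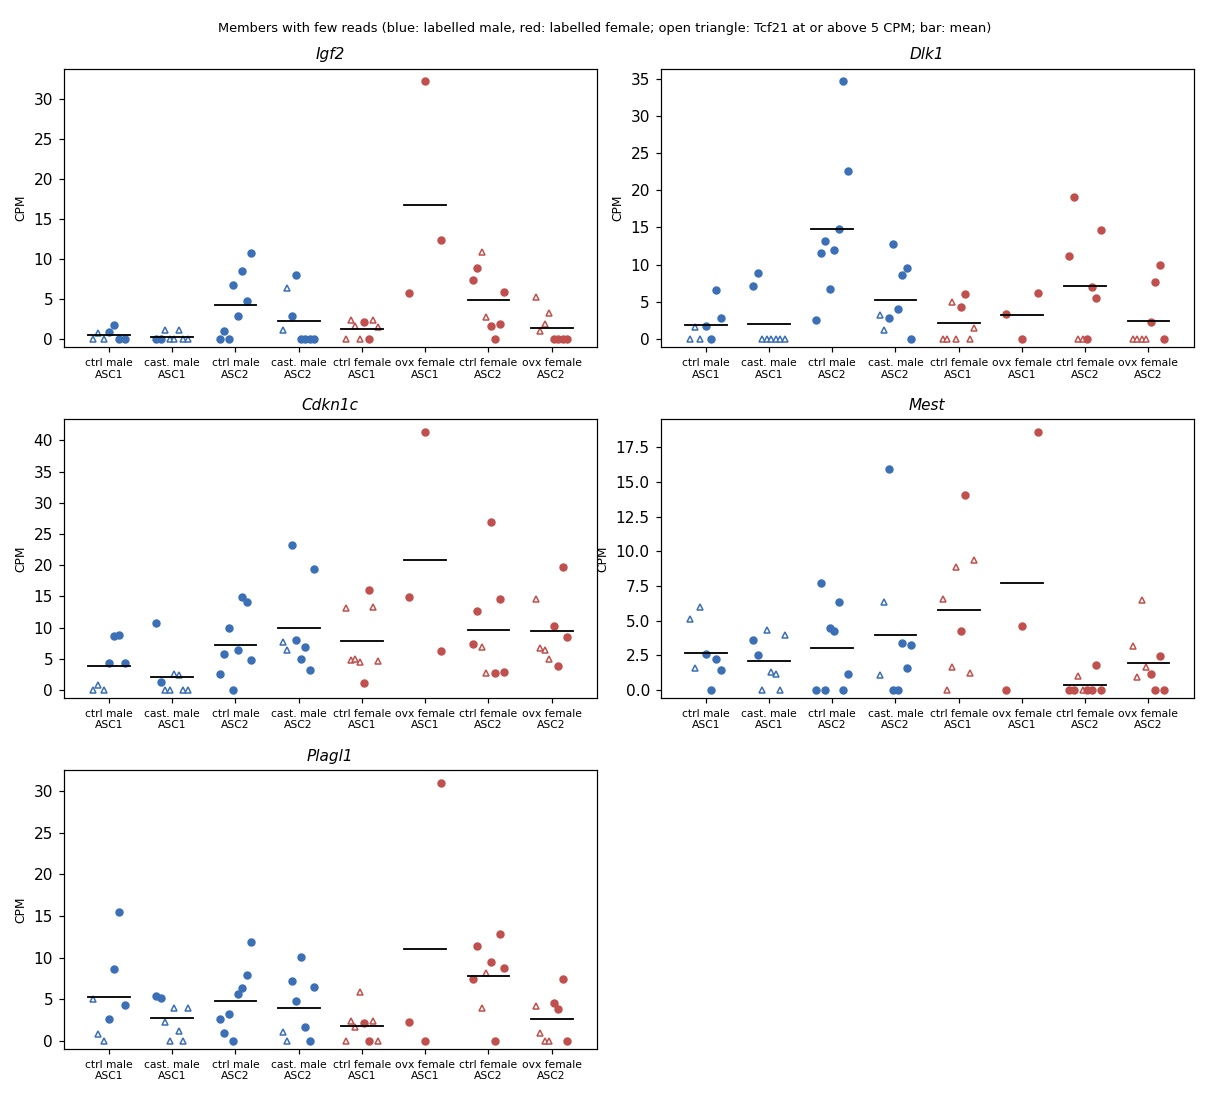
Igf2, Dlk1, Cdkn1c, Mest and Plagl1 in CPM for each library by group (ctrl, control; cast., castrated; ovx, ovariectomized), with group means as black bars and Tcf21 libraries as open triangles. Many libraries lay at 0, and Dlk1 was highest in control male ASC2 (2.60 to 34.6 CPM).

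H19 varied together with some members over the 58 libraries. After subtraction of group means, its Pearson correlation on log2(CPM + 1) was 0.54 with Peg3, 0.47 with Dlk1, 0.43 with Cdkn1c and 0.40 with Meg3. Meg3 and Peg3 had 0.48 within groups and -0.08 over all libraries. The genes most like H19 within groups, among 10542 with a mean of at least 5 CPM, were Thy1 (0.84), Crabp1 (0.78), Tnc (0.77), Lrrc15 (0.74) and Chrna1 (0.74). Thy1 encodes a surface protein of fibroblasts and Tnc the matrix protein tenascin C. Over all libraries they were Mab21l1 (0.74), Hmgb1 (0.70), Zfhx4 (0.69), Thy1 (0.69) and Dkk2 (0.68). Libraries share the split by Tcf21, so these values describe likeness across libraries that differ in it.

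Among the nearest genes to other members within groups were Hnrnpm for Dlk1 (0.75), Crispld1 for Cdkn1c (0.57), Fibin for Peg3 (0.60), Inpp4a for Grb10 (0.73) and Atp5b for Ndn (0.80). Igf2, Mest and Plagl1 had means under 5 CPM and were left out of this search.

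Other imprinted genes were tested in the same fits, 40 of the 66 listed having passed the filter. Castration in ASC2 changed 8 of the 40, 7 lower and 1 higher, beside 6.96% of all genes, with a median of -0.11 over the list. With either or both kinds of library left out, 6 or 7 were called, all lower. Rian, a maternally expressed non-coding RNA of the Meg3 domain, fell from 377 ± 119 to 125 ± 37.2 CPM (SD, n = 8 and 8), by 1.59 ± 0.30 in log2 (adjusted p = 0.00045 by edgeR). Peg12, of the Ndn domain, fell by 1.61 ± 0.42 (adjusted p = 0.012 by edgeR), from 79.9 ± 79.4 to 24.9 ± 16.7 CPM (SD). Dcn, which encodes the proteoglycan decorin and is also among the fibroblast markers summed above, fell by 1.37 ± 0.22 (adjusted p = 3.2e-05 by edgeR). Inpp5f, Impact and Sgce fell by 1.33, 1.08 and 0.92. Castration in ASC1 changed 2 of the 40, beside 2.36% of all genes: Peg10 rose by 1.36 ± 0.35 (adjusted p = 0.020 by edgeR) and Dcn fell by 0.79 ± 0.22 (adjusted p = 0.039 by edgeR). Neither call held without the Tcf21 libraries, where 0 of the 38 still tested were called. All castrated male ASC1 libraries were against the sex label, so castration cannot be told apart from sex in ASC1.

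In control ASC2, 5 of the 40 were higher in males than in females and none lower, beside 6.5% of all genes: Peg12 by 2.05 ± 0.43, Inpp5f by 1.66 ± 0.42, Impact by 1.27 ± 0.26, Rian by 1.19 ± 0.30 and Dcn by 0.67 ± 0.22 in log2. Peg12 lay at 2.37 to 216 CPM in male and 7.34 to 32.1 in female libraries, and Inpp5f at 10.7 to 107 and 2.55 to 16.3. Impact lay at 50.3 to 435 and 50.9 to 114 CPM and Dcn at 3784 to 8231 and 1926 to 9180. These genes overlapped between the sexes, while Rian lay at 228 to 619 and 103 to 203 CPM. This comparison and castration in ASC2 share the control male libraries. Without the libraries against the sex label 1 was called, and without the Tcf21 libraries 4. The former setting left out 4 of 8 male and 6 of 8 female ASC2 libraries. In control ASC1, 0 of the 40 were called between the sexes by edgeR or DESeq2 (0.289% of all genes by edgeR) and 8 had an unadjusted p below 0.05 by edgeR.

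ASC2 and ASC1 of control males differed in 10 of the 40, beside 12.2% of all genes, in 7 without the libraries against the sex label and in 3 without the Tcf21 libraries. Peg12 (1.78 ± 0.44), Slc38a4 (1.73 ± 0.51), Inpp5f (1.58 ± 0.43), Rian (1.42 ± 0.31), Impact (1.28 ± 0.27) and Peg10 (1.00 ± 0.35) were the 6 with the largest differences, all higher in ASC2, and 2 of the remaining 4 were higher. In control females 2 were called, beside 6.11% of all genes, and none when either kind of library was left out. Dio3, of the Dlk1 domain, which encodes a deiodinase that inactivates thyroid hormone, lay at 14.2 ± 15.1 CPM in ASC2 and 73.6 ± 44.0 in ASC1 (-2.22 ± 0.56; adjusted p = 0.0066 by edgeR), and Dcn was 0.83 ± 0.22 higher in ASC2. Castrated males had 3 called, beside 9.09% of all genes, all lower in ASC2 (Tnfrsf23 by 1.09, Pon2 by 1.04 and H13 by 0.65), and none without the Tcf21 libraries. Ovariectomized females had 16 called, 8 in each direction, beside 35.4% of all genes, and 9 to 13 with either or both kinds of library left out.

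Ovariectomized and control female ASC1 differed in 11 of the 40 (27.5%), 7 higher and 4 lower in the ovariectomized libraries, beside 34.8% of all genes. The 3 ovariectomized ASC1 libraries are those that stood apart, and this cannot be told apart from ovariectomy. With either or both kinds of library left out, 10 or 11 were called, on few controls. Those against the sex label were 5 and the Tcf21 libraries 6 of the 8 control female ASC1 libraries. Dcn rose from 2314 ± 613 to 23947 ± 3163 CPM (SD, n = 8 and 3), and Peg13, a non-coding RNA, from 10.6 ± 5.73 to 77.1 ± 78.2 CPM. Peg10 fell from 50.9 ± 16.5 to 4.35 ± 3.78 CPM, Tnfrsf23 from 56.5 ± 21.3 to 7.02 ± 7.46 CPM and Dio3 from 73.6 ± 44.0 to 3.43 ± 5.94 CPM, while Airn, the antisense RNA of Igf2r, rose from 4.02 ± 2.63 to 18.7 ± 13.3 CPM. Dcn is also a fibroblast marker, and the 4 fibroblast markers together summed to 43144 to 45105 CPM in these 3 libraries. Without replicate L, 7 of the 40 were called. In ASC2, ovariectomy changed 3 of the 40, beside 2.09% of all genes: Peg10 fell by 1.14 ± 0.33, Dcn fell by 0.98 ± 0.22 and Tnfrsf23 rose by 1.01 ± 0.26 in log2. None of the 3 was called without the libraries against the sex label, and 1 was without the Tcf21 libraries. The former setting left out 6 of the 8 control female ASC2 libraries.

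Genes that maintain imprints or partner with IGF2 were also tested, 16 of 21 listed having passed the filter. Castration changed none of them in ASC1 or ASC2 by edgeR or DESeq2, with 0 and 2 at an unadjusted p below 0.05 by edgeR. Of the 16, 8 were lower in ovariectomized than in control female ASC1 and none higher, beside 34.8% of all genes called in either direction. The share of all genes called lower is not given and the median over all genes was -0.34, so nothing is read from the direction. The 8 were 6 of 12 in the imprint control group and 2 of 4 among IGF2 partners. The 3 ovariectomized ASC1 libraries are those that stood apart, and this cannot be told apart from ovariectomy. With either or both kinds of library left out, 5 or 6 were called lower, on the same few control female ASC1 libraries as above. Dnmt1, the maintenance DNA methyltransferase, fell from 57.6 ± 31.2 to 14.4 ± 10.1 CPM (SD, n = 8 and 3; adjusted p = 0.00069 by edgeR), and Uhrf1, its cofactor at replicating DNA, from 53.2 ± 35.7 to 2.29 ± 3.96 CPM. Trim28, a corepressor at imprinted regions, fell from 156 ± 29.9 to 43.9 ± 11 CPM. Igf1r, the receptor through which IGF2 signals, fell by 1.17 ± 0.41, and Zfp57 and Dnmt3l had no read in the 3 libraries. All 8 were also higher in ASC2 than in ASC1 of ovariectomized females, a comparison that shares these 3 libraries. The 6 proliferation genes were at 8.0 to 13.8 CPM in these libraries and at 249 to 876 CPM in control female ASC1, and their part in the result was not tested.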

How the data were processed

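RNA of ASC1 and ASC2 from iWAT was measured in 58 Smart-seq3 libraries. The authors trimmed adapters with NGmerge, checked quality with FastQC 0.11.9 and STAR 2.7.10a on GRCm39, estimated reads per transcript with Salmon 1.9.0 (versions from the submitters' processing notes), counted reads with and without UMIs together, and kept libraries with at least 8500 genes. The authors deposited expected counts per gene, not normalized, for 56953 genes. Of the values above 0, 15.0% were not whole, and all were rounded. Because Salmon splits shared reads by estimate, genes that overlap or have near copies are less certain.

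The 12464 genes that reached 5 reads in over 3 libraries were tested with edgeR 4.0.16 in R 4.3.3 (TMM, glmQLFit, glmQLFTest) on all 58 libraries with 1 coefficient for each of 8 groups, and adjusted over all genes tested (Benjamini-Hochberg, threshold 0.05). Standard errors are Wald errors of the log2 coefficient with the quasi-likelihood dispersion. CPM values (reads per 1000000 of the TMM-scaled library size) had 1 added before log2 was taken. On simulated data for castration in ASC2, 197 of 200 genes changed 4-fold among 12464 were recovered, with 6 false calls. The changed genes were drawn only from those above a minimum mean level, which Igf2, Mest, Plagl1, Dlk1 and Cdkn1c did not reach. All genes were given a common spread. The recovery therefore does not cover these members or genes with a wider spread such as H19. Total counts of 106566 to 1421547 per library limit genes with few reads, and counting intervals cover counting error only. No libraries of one group agreed within sampling noise (lowest chi-square per gene 1.53).

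Groups came from the sample labels. The members and lists were chosen with earlier results of these data known. Named were all 10 members, up to 6 list genes with the largest change per comparison among those passing the threshold, and the 5 genes most like each member. Symbols were matched by identifier for 12371 of the genes tested. Alternatives were RLE size factors, no count filter, filterByExpr, DESeq2 1.42.0, only the groups compared, replicate blocks, each ovariectomized ASC1 library left out, and libraries against the sex label left out (Xist or summed Ddx3y, Eif2s3y, Uty and Kdm5d at 10 CPM or more against the label). Leaving out libraries with Tcf21 at 5 CPM or more, alone or with the former, was chosen after seeing the data. Sequences are from RefSeq on GRCm38.p6, a different build from that of the counts.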

Additional observations from a re-analysis of the deposited data

Results flagged for a closer look

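Among 70 pairs of a member and a group of 7 or 8 libraries, 2 held a library far from the others by Dixon's criterion on log2(CPM + 1), and chance alone flags about 1 in 20 such groups. Plagl1 had no read in replicate F of control female ASC2 (0 CPM), where the other 7 libraries lay at 3.93 to 12.8 CPM. Grb10 stood at 165 CPM in replicate H of control male ASC1, where the other 6 lay at 81.4 to 106 CPM. H19 had no such library in any group.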

How the results depend on the processing

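Of the 96 alternative counts of called genes, 78 stayed within 1.5 times the main count. Without the libraries against the sex label, the members called between control males and females became 2 in ASC1 (main 0) and 0 in ASC2 (main 1), those between control female populations became 0 (main 1), and the dependence of the population difference on sex became 1 (main 0). There the 3 other imprinted genes called for ovariectomy in ASC2 became 0. That setting left out 4 of 7 and 4 of 8 libraries of control male ASC1 and ASC2. It also left out 5 of 8 and 6 of 8 of control female ASC1 and ASC2. Control male ASC1 kept only its 3 Tcf21 libraries. H19 turned to -3.78 between control sexes in ASC1 and to -0.55 between control female populations, and to -0.46 in the latter without the Tcf21 libraries. Without those libraries the members called became 2 in control males (main 4) and 0 in control females, and the other imprinted genes became 0 for castration in ASC1 (main 2) and 1 for ovariectomy in ASC2. With only the groups compared, members became 2 in control males and 0 in control females, and other imprinted genes 5 for castration in ASC1 and 4 in ASC2 (main 8). With each ovariectomized ASC1 library left out, members called between ovariectomized populations ranged from 3 to 4 (main 5), and other imprinted genes called for ovariectomy in ASC1 from 7 to 12 (main 11). The libraries left out were the change made in these settings; what in them moved the counts was not tested, and with only the groups compared the cause was not tested. Removing both kinds of library left no fit for any comparison between control groups.

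Replicate letters did not pair the libraries. Deviations of ASC1 and ASC2 libraries of one letter and sex correlated at -0.23 to 0.32 (26 pairs, 7 over 0.1), and those of males and females of one letter and population at -0.18 to 0.33 (26 pairs, 10 over 0.1). With a replicate block by letter, the members called in the population comparisons were 4, 1, 1 and 4 (control male, control female, castrated, ovariectomized). With a replicate block by presumed mouse they were 4, 0, 0 and 3. Depth limits Igf2, Mest, Plagl1, Dlk1 and Cdkn1c, with 103 to 283 reads in 58 libraries. Of 252 further values of single members, 215 kept their direction and side of the threshold or lay within the spread between libraries, 22 lost and 8 gained a call, 4 moved further and 3 reversed.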
